A study of Homo sapiens with 18 samples.

Results

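The genes described here are ID1, ID2, ID3 and ID4, the pathway inhibitors SMAD6, SMAD7, SKIL and BAMBI, and the ligand genes TGFB1 and TGFB2. They were taken by name from the annotation of the arrays, which gave 10 of 30484 gene names and 12 of 41000 probes, with all probes and all 18 arrays used. All 12 probes passed the filter on missing spots. ID2 and TGFB2 have a pair of probes each, and the TGFB1 probe is spotted 10 times on every array. Where a gene has more than 1 probe, the one with the highest mean signal stands for the gene in counts and the other is given beside it.

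RNA came from A549 cells, an established human line from a lung adenocarcinoma that is used as a model of alveolar epithelium. Cells were treated for 2 h in serum-free medium with Ludox® silica NPs at 0.02 mg/mL, either SM30 of 9 nm or AS30 of 18 nm nominal diameter, and then recovered in complete medium with serum. SM30 NPs were studied after 3 h of recovery, AS30 NPs after 3 h and after 22 h, and a separate control group, handled alike but never given NPs, belonged to each of the 3 treatments. Every group held 3 biological replicates, named A, B and C. All groups are 1 cell line, so that the replicates are cultures and not donors, and their p-values measure the spread between cultures. Each sample is a mixture of all cells of a culture, in which fewer responding cells and less RNA per cell cannot be told apart.

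The epithelial and A549 markers KRT8, KRT18, KRT19, EPCAM, CDH1, ALDH1A1 and AKR1B10 were well above background on 18 of 18 arrays. Among markers of other cell types, PECAM1, COL3A1 and DES were so on 0 arrays, CDH5 on 1, PTPRC on 5 and CD3E on 18. The share of spots well above background was 65.5% to 72.4% on the SM30 arrays and their controls and 51.9% to 67.1% on the AS30 arrays and theirs, and no spot was saturated. The arrays lay on 5 slides. SM30 array A shared a slide with its 3 controls, SM30 arrays B and C lay on another, and at 3 h the AS30 arrays and their controls lay on separate slides.

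TGF-beta and BMP ligands bind paired receptor kinases that phosphorylate SMAD proteins, TGF-beta and activins through SMAD2 and SMAD3, BMPs through SMAD1, SMAD5 and SMAD9. The receptor-activated SMADs enter the nucleus with SMAD4 and switch on, among other genes, inhibitors of the same pathway. ID proteins have a helix-loop-helix region but no basic region, so they pair with E proteins such as TCF3 and TCF12 and keep them off DNA, and ID1, ID2, ID3, SMAD6 and ATOH8 are textbook targets of BMP signals. SMAD7 and SKIL are feedback genes of the TGF-beta branch, and BAMBI is a decoy receptor without a kinase.

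The DNA just upstream of the start of 4 of these genes is shown for ID2 and SMAD6, which fell after SM30, and for ID1 and ID3, as ID genes whose differences after SM30 had opposite signs. The sequences are from RefSeq, build GRCh38.p14, and run 5′ to 3′ over the 250 bases before the start. Capitals mark the 5 letter strings searched on both strands, which were GGCGCC and GCCGNCGC (strings of the GC-rich kind bound by BMP SMADs), CAGAC (the SMAD box), CCAAT and TATAAA. The last pair was added after the sequences had been read.
ID1 (chr20:31605039-31605288, + strand): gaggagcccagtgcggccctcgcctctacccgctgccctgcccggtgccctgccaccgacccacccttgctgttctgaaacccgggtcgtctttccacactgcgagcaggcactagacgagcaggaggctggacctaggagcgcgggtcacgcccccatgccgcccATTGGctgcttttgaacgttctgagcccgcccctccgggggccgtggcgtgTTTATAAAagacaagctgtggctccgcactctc
ID2 (chr2:8681806-8682055, + strand): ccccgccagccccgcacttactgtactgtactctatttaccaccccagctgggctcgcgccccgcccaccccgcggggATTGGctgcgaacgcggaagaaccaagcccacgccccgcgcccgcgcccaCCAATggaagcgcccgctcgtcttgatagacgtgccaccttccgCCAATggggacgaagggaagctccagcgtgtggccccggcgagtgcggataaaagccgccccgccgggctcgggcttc
SMAD6 (chr15:66701986-66702235, + strand): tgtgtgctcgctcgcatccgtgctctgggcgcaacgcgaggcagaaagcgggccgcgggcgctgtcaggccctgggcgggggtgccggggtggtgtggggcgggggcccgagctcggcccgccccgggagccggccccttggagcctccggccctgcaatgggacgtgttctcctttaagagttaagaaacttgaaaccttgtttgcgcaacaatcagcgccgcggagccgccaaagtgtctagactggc
ID3 (chr1:23559502-23559751, - strand): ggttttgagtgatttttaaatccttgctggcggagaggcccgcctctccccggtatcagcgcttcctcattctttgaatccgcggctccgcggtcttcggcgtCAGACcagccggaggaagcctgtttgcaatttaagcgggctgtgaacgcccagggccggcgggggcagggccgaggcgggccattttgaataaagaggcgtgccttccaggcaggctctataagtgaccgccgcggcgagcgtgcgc
GGCGCC and GCCGNCGC occurred in none of these 4 windows, and CAGAC occurred once, in ID3. CCAAT occurred 3 times in the ID2 window and once in that of ID1, and TATAAA occurred only in ID1, with a match on each strand that overlap each other. Among 35116 upstream windows of the same length in the RefSeq table, 16.4% held GGCGCC, 12.9% GCCGNCGC, 38% CAGAC, 32% CCAAT and 10.7% TATAAA. All 10 genes were matched in that table. Of the genes not printed, BAMBI held GGCGCC 3 times and GCCGNCGC once, and SKIL held them 1 and 5 times. A match is a string in a window and not a bound site. Only the 250 bases before the start were searched, so an absent string says nothing about sites elsewhere.

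After SM30 NPs, ID2 and SMAD6 fell, and TGFB2 fell on the probe that stands for it but not on its other probe. These were 3 of the 10 genes at an adjusted p under 0.05 in limma, all 3 lower. Of all probes, 7.49% were called and 3.13% were called lower. The 10 genes were chosen with earlier results of these data known, so the count is no test against that share. Levels are log2 normalized signals and are compared between arrays for one probe, never between probes. The median log2 difference was -0.52 over the 10 genes and -0.05 over all probes, and it lay below 0 for 7 of the 10 genes and for 56.3% of all probes. The question was how the cells responded to the smaller NPs relative to their own controls.

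ID2, an inhibitor of E proteins that is also known for its role in the cell cycle, was read by probe A_23_P143143 at chr2:8740093-8740481 of build hg18, a span longer than the probe itself. In replicate order its level was 10.76, 10.70 and 10.64 after SM30 and 12.47, 12.03 and 12.04 in the controls. The SM30 arrays lay close together and far below all 3 controls. ID2 fell by 1.48 on the log2 scale (standard error 0.19, adjusted p = 0.0070 from limma), a 2.79-fold drop, and the second probe, A_32_P69368, fell by 1.66 (0.28, 0.012). The pairs gave -1.71, -1.33 and -1.40 on the first probe and -1.78, -1.58 and -1.63 on the second, below 0 in 3 of 3 pairs.

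SMAD6 encodes the inhibitory SMAD that chiefly damps BMP signalling. Its probe lies on chromosome 15, with coordinates 64795864 to 64860421 in hg18, again a span longer than the probe. The level was 7.68, 7.88 and 7.74 on the SM30 arrays and 9.01, 9.16 and 9.36 on the controls. Again the groups did not overlap. SMAD6 fell by 1.41, or 2.66-fold (standard error 0.20; limma, adjusted p = 0.0070), with -1.33, -1.28 and -1.62 in the 3 pairs. The size depends on the background correction and its offset. With normexp correction of the raw spot signal and an offset of 50, SMAD6 fell by 0.71 (limma, adjusted p = 0.0080).

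TGFB2, a TGF-beta ligand, was read by probe A_24_P148261 at chr1:216683872-216683931 at 12.33, 12.37 and 12.25 after SM30 and at 12.83, 13.08 and 13.30 in controls. It fell by 0.76, or 1.69-fold (limma, standard error 0.15, adjusted p = 0.026). The other TGFB2 probe, A_24_P402438 at chr1:216681407-216681466, did not follow, with 8.44, 8.36 and 8.36 after SM30 and 8.71, 8.39 and 8.45 in controls, a difference of -0.13 (95% interval -0.82 to 0.56, adjusted p = 0.83). The call on the first probe was also lost when spots marked as outliers were kept (difference -0.76, adjusted p = 0.46) and in the authors' deposited table (-0.77, 0.45), where an AS30 22 h control spot of 15.89 that the scanner software marks as an outlier enters the shared estimate of the spread.

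ID1, a common readout of BMP signals, was read by a probe at chr20:29657819-29657878 of hg18 and lay just outside the threshold. Its level was 14.81, 15.09 and 14.93 after SM30 and 15.66, 15.83 and 15.76 in controls, with no overlap. The pairs differed by -0.85, -0.74 and -0.83, and their mean was -0.81 (standard error 0.21, 95% interval -1.28 to -0.33, adjusted p = 0.054 from limma). The spread between the 3 SM30 ratios was small, and the standard error is larger because limma pools the spread with that of the AS30 ratios. In 9 of 20 other ways of processing the difference passed the threshold.

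ID4, read by a dim probe at chr6:19947489-19947548, differed by -1.88 (standard error 0.50, adjusted p = 0.074). It read 4.31, 4.58 and 4.69 after SM30 and 6.01, 6.42 and 6.79 in controls. All 6 arrays were well above background for it and the groups did not overlap. With normexp correction the difference was only -0.32 (adjusted p = 0.099 from limma). That setting also adds an offset of 50 to every signal, which by itself shrinks the ratios of dim probes. The size for ID4 is thus open to the background correction and its offset, and their parts were not told apart.

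ID3 (probe at chr1:23758253-23758312) had a difference of opposite sign to that of the other ID genes. It read 13.43, 13.67 and 13.55 after SM30 and 13.21, 13.10 and 13.26 in controls, a difference of 0.36 (95% interval -0.13 to 0.85, adjusted p = 0.33). SMAD7, the inhibitory SMAD of the TGF-beta branch, differed by -0.28 (adjusted p = 0.24), from 10.24, 10.11 and 9.99 in controls to 9.91, 9.92 and 9.69. Its 3 SM30 arrays lay below all 3 controls, but by less than the pooled spread allows to be called. TGFB1 differed by 0.29 (adjusted p = 0.22), with 9.65, 9.73 and 9.53 against 9.37, 9.34 and 9.33, and the standard deviation over its 10 spots within an array was 0.030 to 0.11 log2 units. BAMBI differed by -0.26 (adjusted p = 0.39) and SKIL by 0.09 (adjusted p = 0.77). For 9 of the 10 genes, all but SKIL, the 3 SM30 arrays and the 3 controls did not overlap, 7 below and 2 above, where 43.3% of all probes did not overlap.

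Slide and scan move with this comparison in part. On the slide that SM30 array A shares with its 3 controls, array A minus the mean of the controls was -1.42 for ID2, -1.50 for SMAD6, -0.75 for TGFB2, -0.94 for ID1 and -2.10 for ID4. SM30 arrays B and C share no slide with a control. With slide as a fixed block no gene of the 10 was called, with adjusted p = 0.15 for ID2, 0.073 for SMAD6 and 0.24 for TGFB2, and 1.16% of all probes were called. Without pair B or without pair C of SM30 the count was also 0, with adjusted p = 0.0510 and 0.0525 for ID2 and 0.0511 and 0.0606 for SMAD6, while 1.01% and 1.04% of all probes were called, and without pair A TGFB2 alone lost its call (adjusted p = 0.064).

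**Figure D1:**
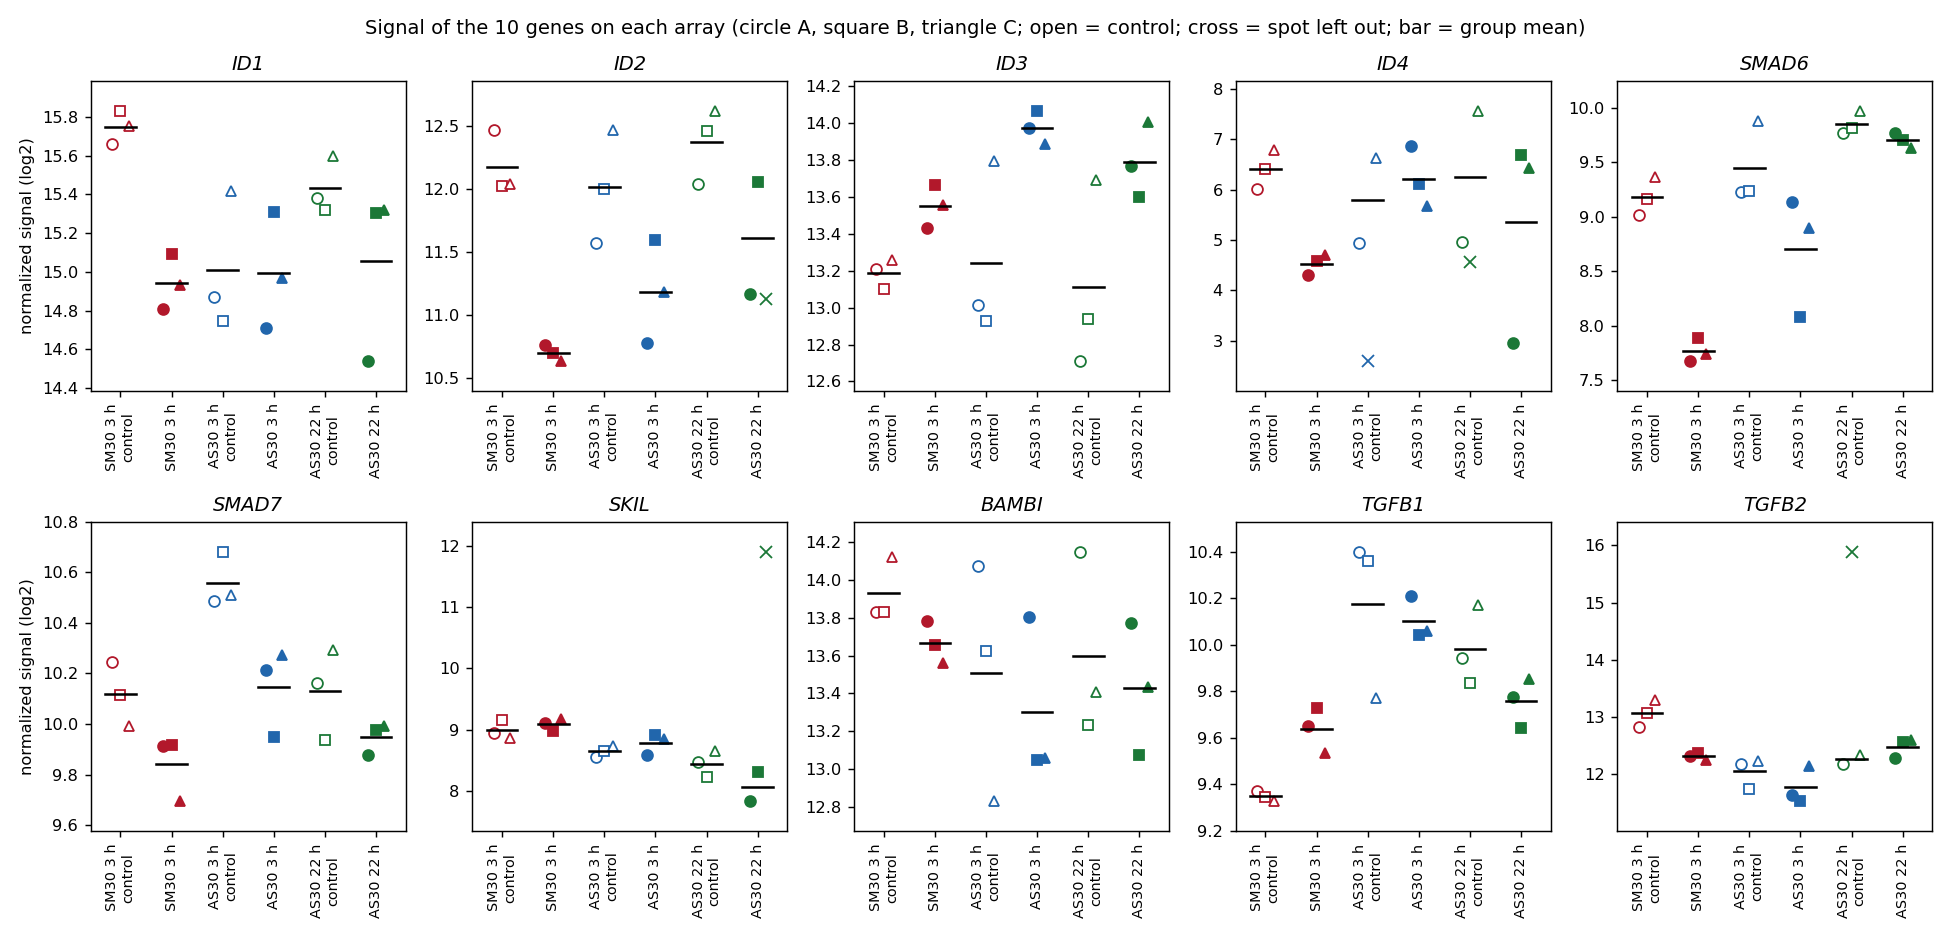
Normalized signal (log2, vertical axis) of each of the 10 genes on each array, by group on the horizontal axis, with circles, squares and triangles for replicates A, B and C, open symbols for controls, crosses for spots left out, and bars for group means. Each panel has its own scale, and the SM30 arrays of ID2 (10.64 to 10.76) and SMAD6 (7.68 to 7.88) lie below every other measured array of that gene, with AS30 array A at 3 h (10.78) the closest for ID2.

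After AS30 NPs at 3 h, none of the 10 genes was called by limma, where 2.52% of all probes were called. At an unadjusted p under 0.05 there were 4, ID2, SMAD6, ID3 and SMAD7, where 24.4% of all probes were so, and the smallest adjusted p was 0.065. The median log2 difference of the 10 genes was -0.14, against 0.01 over all probes. This comparison addresses the larger NPs at the same dose and recovery time.

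ID2 read 10.78, 11.60 and 11.18 after AS30 and 11.57, 11.998 and 12.47 in controls. The groups overlapped by 1 array. The mean of the pairs was -0.83 (95% interval -1.27 to -0.39, adjusted p = 0.065), with all 3 pairs below 0, and the second probe gave -0.65 (adjusted p = 0.19). SMAD6 read 9.14, 8.08 and 8.90 against 9.23, 9.23 and 9.88, with no overlap, and differed by -0.74 (95% interval -1.19 to -0.29, adjusted p = 0.082), or by -0.43 with normexp correction. Its pair A was nearly flat at -0.09, and without that pair the difference was -1.07 (adjusted p = 0.038).

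ID3 read 13.97, 14.06 and 13.88 after AS30 and 13.01, 12.93 and 13.79 in controls. Array C of the controls stood apart from the other 2 controls and near the treated arrays. The mean of the pairs was 0.73 (95% interval 0.24 to 1.22, adjusted p = 0.10), with 0.96, 1.14 and 0.09 in the pairs, and without pair C it was 1.05 (adjusted p = 0.028). That control array also had the lowest share of positive and significant spots of all 18 arrays, 66.0%, and its part in the result was not tested.

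SMAD7 read 10.21, 9.95 and 10.27 against 10.49, 10.68 and 10.51, with no overlap and a difference of -0.41 (adjusted p = 0.12). ID1 did not separate, with 14.71, 15.31 and 14.97 against 14.87, 14.74 and 15.42 and a difference of -0.01 (95% interval -0.49 to 0.46, adjusted p = 0.97). ID4 was well above background on only 1 of the 3 controls, and control B was left out as not significant, so that its difference of 0.48 (adjusted p = 0.66) rests on 2 pairs of opposite sign, 1.91 and -0.96, the first against a control not well above background. SKIL, BAMBI and TGFB1 differed by -0.20 to 0.14. TGFB2 differed by -0.28 on the first probe and by -0.86 on the second (adjusted p = 0.29 and 0.14), and the second gave -1.48 and -1.36 in pairs A and B but 0.26 in pair C. In all, 3 of the 10 genes did not overlap, where 25.9% of all probes did not. No slide holds both AS30 arrays and controls of 3 h, so no within-slide value exists, and slide and treatment can be told apart only through the 22 h controls on those slides.

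After AS30 NPs at 22 h, limma again called 0 of the 10 genes, where 3.58% of all probes were called. At an unadjusted p under 0.05 there were 3, ID2, ID3 and ID4, where 22.9% of all probes were so. ID3 read 13.77, 13.60 and 14.01 against 12.71, 12.94 and 13.69 in controls. The arrays of the groups overlapped, and the mean difference was 0.68 (95% interval 0.19 to 1.17, adjusted p = 0.11), with all 3 pairs above 0. On the slide that the 3 AS30 arrays share with control C the difference was 0.10.

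ID2 read 11.16 and 12.06 in the measured arrays and 12.04, 12.46 and 12.62 in controls, with array C left out because its spot is marked as an outlier. The difference was -0.64 over 2 pairs (adjusted p = 0.16), and the second probe gave -1.50, 0.03 and -0.90 in the pairs and -0.79 on average (adjusted p = 0.14). SMAD6, the gene with the second largest called drop after SM30, read 9.76, 9.71 and 9.63 against 9.77, 9.82 and 9.97 and differed by -0.15 (95% interval -0.60 to 0.30, adjusted p = 0.70). ID1 read 14.54, 15.30 and 15.32 against 15.38, 15.32 and 15.60, a difference of -0.38 (adjusted p = 0.32) of which pair A carried -0.84. ID4 differed by -1.57 over 2 pairs (adjusted p = 0.19), with controls well above background on 1 of 3 arrays. SMAD7, SKIL, BAMBI, TGFB1 and TGFB2 differed by -0.28 to 0.18, and SKIL on array C and TGFB2 on control B were left out as outlier spots. ID1 and SMAD6 were the 2 genes whose groups did not overlap, where 26.4% of all probes did not.

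**Figure D2:**
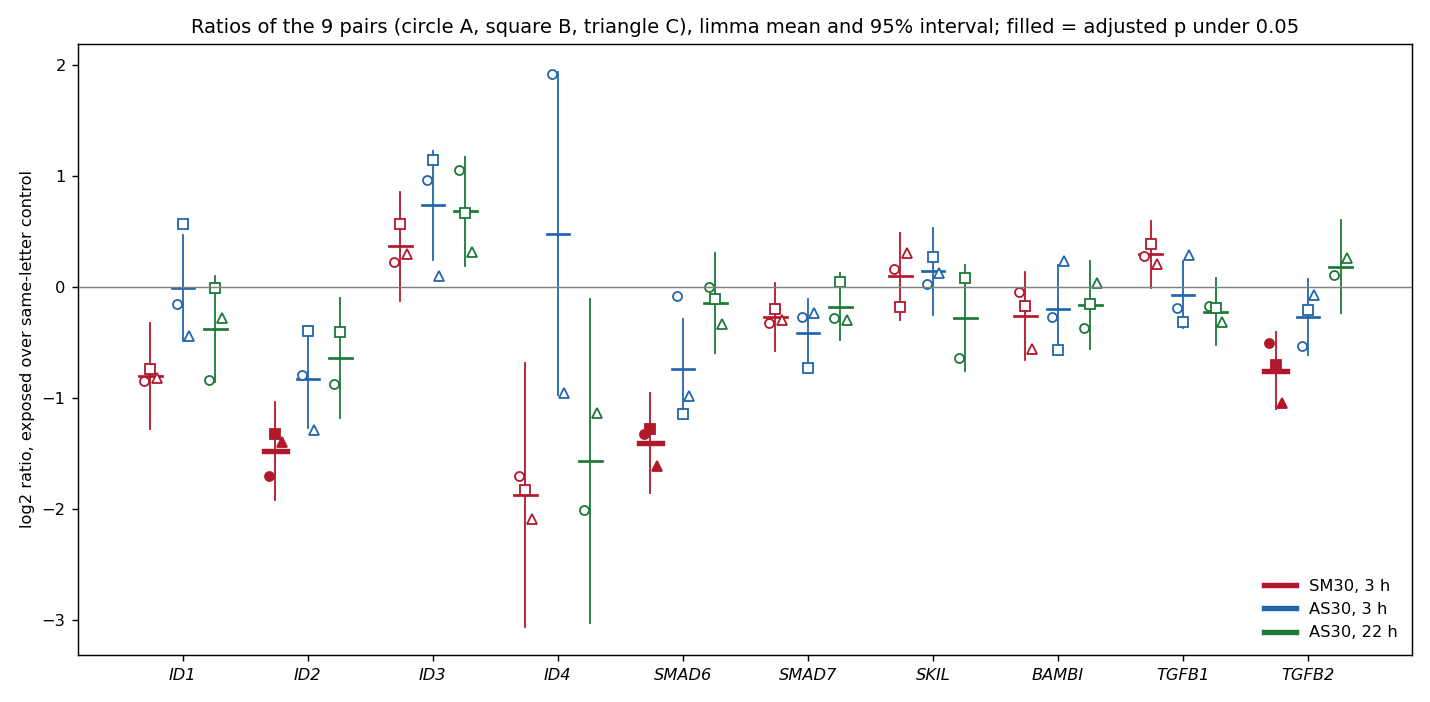
Log2 ratio of each treated array to the control of the same letter (vertical axis) for the 10 genes, with SM30 at 3 h in red, AS30 at 3 h in blue and AS30 at 22 h in green, circles, squares and triangles for pairs A, B and C, short bars for the mean and lines for the 95% interval from limma. Filled symbols mark an adjusted p under 0.05, which ID2 (-1.48), SMAD6 (-1.41) and TGFB2 (-0.76) reached after SM30 and no gene reached after AS30.

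The responses to the 2 NPs at 3 h were compared as the difference between their ratios, each over its own controls. None of the 10 genes was called by limma, where 0.014% of all probes were called. ID1, ID2, ID4 and SMAD6 had an unadjusted p under 0.05, each with a lower ratio after SM30, where 14.6% of all probes had one. The SM30 ratio minus the AS30 ratio was -0.79 for ID1 (95% interval -1.47 to -0.12, adjusted p = 0.29), -0.65 for ID2 (-1.28 to -0.03, 0.33), -0.67 for SMAD6 (-1.31 to -0.03, 0.32) and -2.35 for ID4 (-4.24 to -0.47, 0.28). The ID1 ratios of the 3 SM30 pairs, -0.85 to -0.74, lay below all AS30 pairs at 3 h, -0.45 to 0.56. The drops of ID2 and SMAD6 after SM30 are thus not shown to differ from the smaller values after AS30. For TGFB1 the difference was 0.36 (95% interval -0.06 to 0.79, adjusted p = 0.41) and for ID3 it was -0.37 (-1.06 to 0.33, 0.60).

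Between 22 h and 3 h after AS30, none of the 10 genes was called and 0 had an unadjusted p under 0.05, where 0.0285% of all probes were called and 16.9% had an unadjusted p under 0.05. The largest interval was that of ID4, -4.11 to 0.01. SMAD6 had a ratio higher by 0.59 at 22 h (95% interval -0.05 to 1.23, adjusted p = 0.33), and the ID2 and ID3 ratios differed by 0.19 and -0.05.

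Cells without NPs were compared to learn the background of these genes. In AS30 control cells at 22 h against 3 h, 0 of the 10 genes were called, where 1.3% of all probes were, and SMAD7 alone had an unadjusted p under 0.05, against 14.9% of all probes. It read 10.16, 9.94 and 10.29 at 22 h and 10.49, 10.68 and 10.51 at 3 h, a difference of -0.43 (adjusted p = 0.11). Between the control cells of the SM30 set and those of the AS30 set at 3 h, 4 of the 10 genes were called, where 26.8% of all probes were called, 15.6% higher and 11.1% lower in the SM30 set. TGFB2 was higher in the SM30 set by 1.02 (standard error 0.18, limma, adjusted p = 0.0018). Its other probe gave 0.67 (adjusted p = 0.083) and was not called. ID1 was higher by 0.74 (0.22, 0.024), while TGFB1 was lower by 0.83 (0.15, 0.0017) and SMAD7 by 0.44 (0.12, 0.019).

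For TGFB1 the 3 controls of the SM30 set read 9.33 to 9.37 and those of the AS30 set 9.77 to 10.40. For ID1 they read 15.66 to 15.83 and 14.74 to 15.42. These control sets share no slide, so slide and culture set cannot be told apart, and the ID1 call was lost under 75th percentile scaling (0.53, adjusted p = 0.17) and on leaving out SM30 control B or C or AS30 control A or B, each by itself (adjusted p = 0.058 to 0.078). The SMAD7 call was lost with normexp correction (-0.17, adjusted p = 0.22) and on leaving out SM30 control B or C or AS30 control B (adjusted p = 0.052 to 0.070). The TGFB2 call was lost when outlier spots were kept (adjusted p = 0.28) and in the authors' deposited table (adjusted p = 0.27). With the SM30 treated arrays at 14.81 to 15.09, ID1 after SM30 lay within the range of the AS30 controls at 3 h.

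The other genes of the pathway were taken from a list of 52 genes in 6 roles. The list was chosen with earlier results of these data known. Each gene is read by its probe of highest mean signal, while the share of all probes includes dim ones. The counts are thus a description and no test against that share. After SM30, 15 of 52 were called, where 7.49% of all probes were, with 9 higher, 6 lower and a median of -0.03. After AS30, 7 of 52 were called at 3 h, where 2.52% of all probes were, with 4 higher, 3 lower and a median of 0.03. At 22 h 2 of 49 measured were called, both higher, with a median of -0.05, and this share is near the 3.58% of all probes called.

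Among the 9 other genes listed as ligands of the TGF-beta family, 4 rose and 2 fell after SM30. Of all probes, 4.35% were called higher and 3.13% lower. INHBA, which encodes the activin A subunit, had the largest rise, by 3.55 (standard error 0.18, adjusted p = 0.0014 from limma), from 4.97, 4.58 and 4.92 in controls to 8.35, 8.50 and 8.28. BMP6, a BMP ligand, rose by 2.07 (0.29, 0.0070), from 8.96, 8.81 and 9.00 to 11.05, 11.02 and 10.90. For BMP2 the 3 controls were not well above background. The bound rule gave a 7.13-fold rise, with no allowance for error (limma, adjusted p = 0.022, from 2 measured pairs). On the log2 scale this is 2.83, and the fitted rise was 2.84, so the value is close to an estimate and is no sure lower bound. GDF15 rose by 1.18, while BMP4 fell by 1.42 and INHBB, another activin subunit gene, by 1.69. The ligand genes thus did not move as one group.

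Among 12 genes that restrain the pathway, 3 rose and none fell after SM30, against 4.35% of all probes called higher. FST, whose product follistatin binds activins and BMPs, rose by 2.14 (standard error 0.28, adjusted p = 0.0052), from 9.05, 8.96 and 9.13 to 11.14, 11.34 and 11.08. SMURF1 and SMURF2, ubiquitin ligases of SMADs and receptors, rose by 0.77 and 0.67 on the probe used, and their second probes gave 0.44 and 0.24 (adjusted p = 0.27 and 0.50). None of these 3 genes moved in the direction of SMAD6.

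Of 11 receptor genes, TGFBR1 and ACVR1, receptor kinases, rose by 1.96 and 1.03 and TGFBR3, a co-receptor without a kinase, fell by 1.64. The shares of all probes called after SM30 were 4.35% higher and 3.13% lower. None of the 6 receptor-activated and common SMAD genes was called after SM30 or after AS30 at either time, where their median difference was 0.09 after SM30. The shares of all probes called were 7.49% after SM30, and 2.52% and 3.58% after AS30 at 3 h and 22 h. With so few genes, a count of 0 is near those shares and is no result about them. Of the 3 E protein genes that pair with ID proteins, none was called after SM30, and TCF4 fell by 1.07 after AS30 at 3 h (standard error 0.18, limma, adjusted p = 0.030). The same shares stand beside these 3 genes, too few for their counts to be a result.

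Of 11 further target genes, 3 fell and none rose after SM30, against 3.13% of all probes called lower. ATOH8, a BMP target, was not well above background on any SM30 array. Its fitted drop was 5.10-fold (limma, adjusted p = 0.0042). The bound rule gave the same value, so this is an estimate and not a lower bound. THBS1, a matrix protein gene, fell by 2.21 (standard error 0.43, adjusted p = 0.021), with pairs of -0.76, -3.65 and -2.21, and by 1.26 (adjusted p = 0.0032) on a second probe. CCN2, a TGF-beta target that also answers to other signals, fell by 1.09 (0.15, 0.0072). GDF15, BMP4, INHBB, SMURF1, SMURF2, TGFBR1, ACVR1, TGFBR3 and CCN2 lie outside the 6 largest changes by which genes were to be named, and were named after their values were seen.

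After AS30 at 3 h, BMP6 rose by 1.70 (standard error 0.29, limma, adjusted p = 0.030), FST by 1.79 (0.28, 0.022) and SMURF1 by 0.69 (0.13, 0.042). The second SMURF1 probe gave 0.10 (adjusted p = 0.83) and was not called. INHBA rose by 1.76 (adjusted p = 0.030) over 2 pairs, with controls well above background on 1 of 3 arrays. INHBB fell by 1.42 (0.22, 0.021) and CCN2 by 1.28 (0.15, 0.010). THBS1 differed by -0.48 on the probe used (limma, adjusted p = 0.52) but by -1.02 on its second probe (adjusted p = 0.017). On that second probe the SM30 ratio minus the AS30 ratio was -0.24 (adjusted p = 0.61). At 22 h BMP6 was higher by 1.76 (0.29, 0.024), with 9.65, 9.24 and 10.04 against 7.82, 7.54 and 8.31. GREM1, a BMP antagonist, was higher by 2.36 (0.24, 0.014), with 8.29, 7.92 and 9.00 against 5.84, 5.57 and 6.71, and was well above background on 1 of 3 controls. The control cells themselves had less of both at 22 h than at 3 h, by 1.76 for BMP6 (limma, adjusted p = 0.012) and by 2.02 for GREM1 (adjusted p = 0.0071). These calls come from the fit of 6 groups. With only the 2 control groups fitted, 0% of all probes were called. The treated cells at 22 h lay at the level of 3 h controls in BMP6 (9.23 to 10.11) and near it in GREM1 (7.50 to 8.40). Those treated arrays and 3 h controls lay on separate slides, so slide was not held constant in that comparison.

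**Figure D3:**
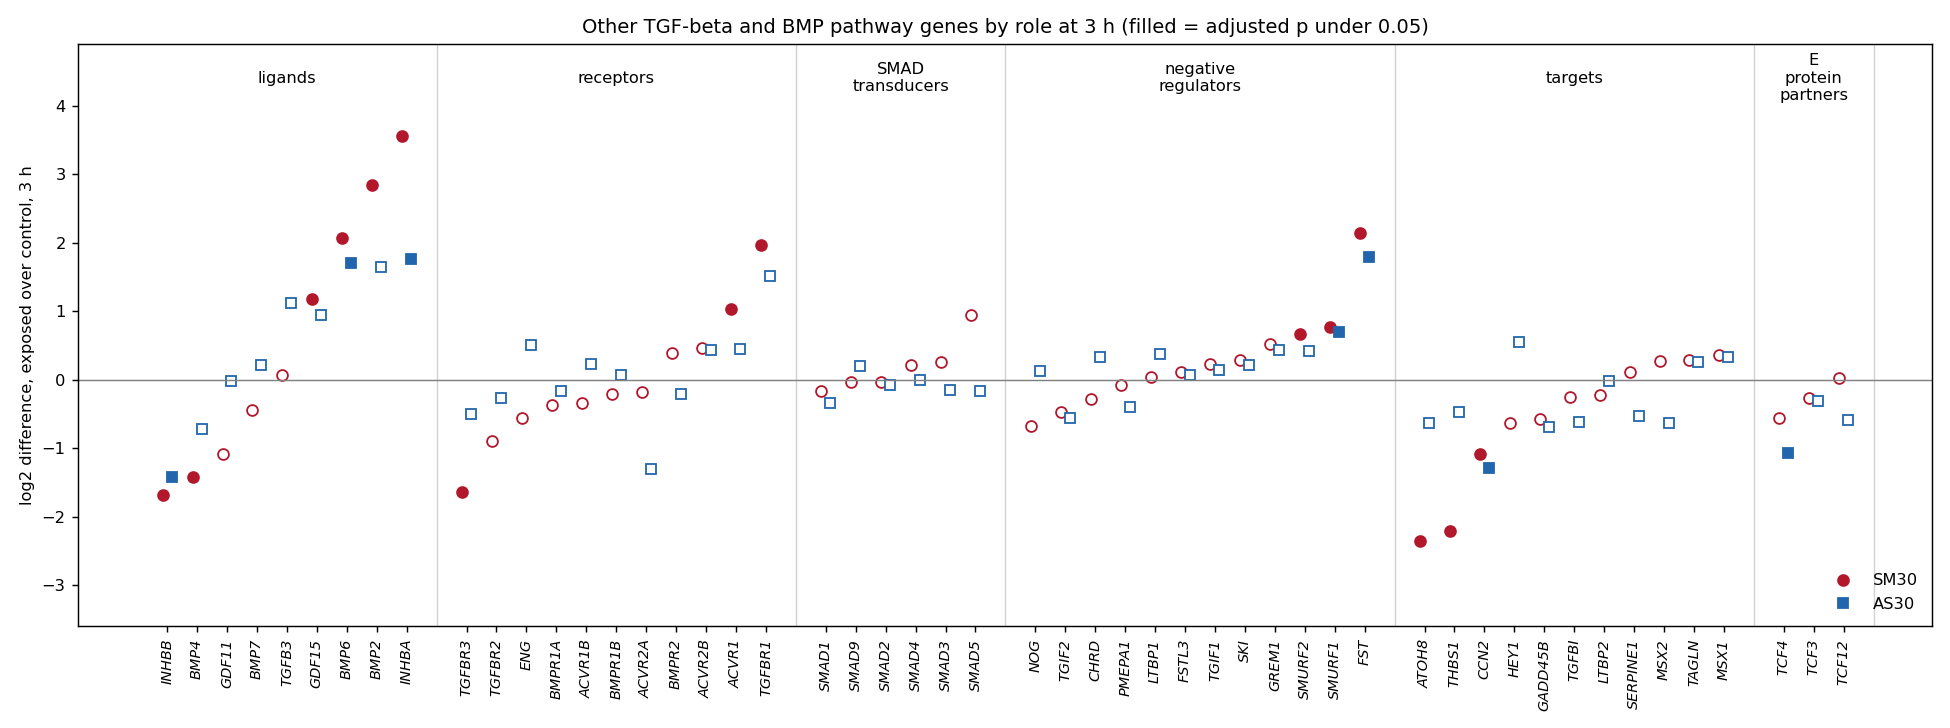
Log2 difference of treated against control cells at 3 h (vertical axis) for the 52 other pathway genes, by role and ordered within a role by the SM30 value, with red circles for SM30 and blue squares for AS30 and filled symbols for an adjusted p under 0.05. INHBA (3.55) and FST (2.14) stand at the top of their roles after SM30 and ATOH8 and THBS1 at the bottom of the targets. The points of BMP2 and ATOH8 are fitted values with 1 group not well above background, so they give no sure size.

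The pattern of 9 ratios was set against that of every other probe measured in all 9 pairs, 23030 in all, as a description. Closest to ID1 were PLCB1 (Pearson r 0.94), TMEM127 (0.94), METTL3 (0.93), PDCL3 (0.92) and TFAP2E (0.92), and closest to SMAD7 were ZNF646 (0.96), NCOA7 (0.95), PCED1B (0.94), PIK3C2A (0.93) and CDCA2 (0.93). The 9 points share arrays, slides and cell line.

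**Figure D4:**
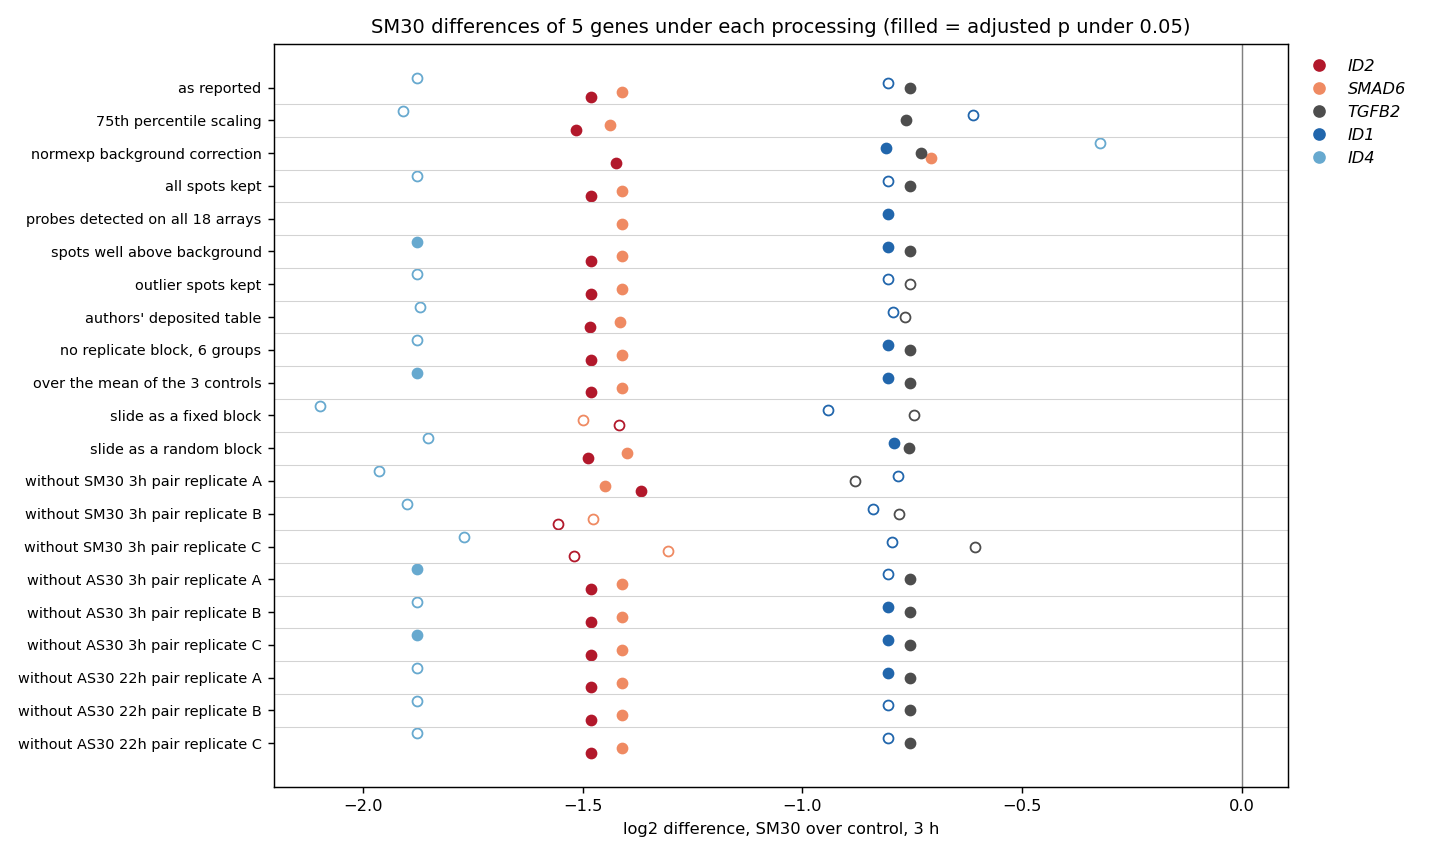
Log2 difference of SM30 against control cells at 3 h (horizontal axis) for 5 genes under the reported processing and each alternative (rows), with filled circles for an adjusted p under 0.05 and no circle where the probe was not kept. All values lie below 0, ID2 between -1.56 and -1.37, whereas the values of SMAD6 (-0.71) and ID4 (-0.32) move most under normexp correction and calls are lost with slide as a fixed block.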

How the data were processed

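Total RNA of A549 cultures was hybridised by the authors to 18 one-colour (Cy3) Agilent arrays in 6 groups of 3, and scanned images were read with Agilent Feature Extraction. The authors deposited 1 scanner file per array with spot intensity on a linear scale, and a table of quantile-normalized intensity, used here as an alternative. Columns not used numbered 0.

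Values were computed with R 4.3.3 and limma 3.58.1. The log2 of the processed signal was quantile-normalized over the 18 arrays without control spots, spots not positive and significant or marked as outliers were set to missing, replicate spots were averaged, and probes with over 33% missing were removed, which left 28665 of 41000. Signals near background depend on its correction. The normexp alternative adds an offset of 50 to every signal, which shrinks log ratios of dim spots. Ratios of treated arrays to controls of the same letter were taken, and the 9 log2 ratios entered limma in 3 classes. Control groups were compared in a fit of 18 arrays. All probes tested entered the Benjamini-Hochberg adjustment, and the threshold was 0.05. The fits were tested on simulated data. The number of arrays limits the precision of each value. A bound was taken for a group not well above background. On each of its arrays it uses the higher of the probe's own signal and the lowest signal well above background. The deposited background correction was kept. The bound makes no allowance for error. For ATOH8 it equals the fitted difference, and for BMP2 it lies close to it.

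Genes were named by a rule: all probes of the 10 genes, and of the 52 pathway genes at most the 6 with the largest change past the threshold per comparison. Likeness to ID1 and SMAD7 took the 5 highest correlations. The genes and lists were chosen with earlier results of these data known. Correlations of the deviations of same-letter arrays were -0.09 to 0.45, over 0.1 in 3 of 9 pairs, so the letters are not shown to pair the arrays. Alternatives were other scaling, background correction, spot filters, the deposited table, other ratios, slide as a block and each array or pair left out. A listed cell type marker is not reported here.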

Additional observations from a re-analysis of the deposited data

Results flagged for a closer look

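TGFB1 had a ratio above 0 in all 3 SM30 pairs (0.28, 0.38 and 0.21) and below 0 in all 3 AS30 pairs at 22 h (-0.17, -0.19 and -0.32), a gap of 0.52 log2 units between the means. It was flagged because every pair of one treatment moved one way and every pair of the other the opposite way. The difference was not tested, since NP size and recovery time both differ between these treatments. Neither change passed the threshold by itself in limma (adjusted p = 0.22 and 0.34), and the SM30 control cells read lower in TGFB1 than the AS30 control cells.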

How the results depend on the processing

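Of 121 values of called genes under alternatives, 92 were still called and 0 changed sign. These pool the SM30 calls with those between the 2 control sets. After SM30, ID2 stayed called in 16 of 19 settings, SMAD6 in 17 of 20 and TGFB2 in 13 of 19. Some of these settings leave out an AS30 pair, which changes the spread but not the SM30 value. Between the control sets, TGFB1 stayed called in 15 of 16, TGFB2 in 12 of 15, SMAD7 in 10 of 16 and ID1 in 9 of 16. Of 1175 values of uncalled genes, 35 were called and 57 changed sign while uncalled. Among the 10 genes the SM30 count was 3, and it was 5 with spots well above background, 8 over the mean of the 3 controls, 0 with slide as a fixed block and 0 to 5 on leaving out a pair (0 without SM30 pair B or C, 5 without AS30 3 h pair C). The AS30 count at 3 h was 0, against 1, 4 and 4 with spots well above background, the mean of controls and slide as a random block, and 0 to 2 on leaving out a pair (1, SMAD6, without AS30 pair A; 2, ID3 and ID4, without pair C, where ID4 rests on a single pair and takes its spread from the other groups). At 22 h it was 0, against 3 over the mean of controls and 0 to 1 on leaving out a pair. The count for SM30 minus AS30 became 2 over the mean of controls, and that for 22 h minus 3 h was 0 to 1 on leaving out a pair. These counts over the mean of controls treat each control mean as free of error. Of all probes, 33% were then called after SM30, 34.5% after AS30 at 3 h and 31.1% at 22 h. For SM30 minus AS30 the share was 19%. With spots well above background the shares were 11.7% after SM30 and 5.03% after AS30 at 3 h. With slide as a random block the AS30 share at 3 h was 13.6%. The correlation within slides in that block was -0.083, so it is no adjustment for a shared slide effect. On leaving out AS30 3 h pair A or C, the AS30 share at 3 h was 0.716% or 10.7%. Without AS30 3 h pair C the share was also 9.49% after SM30, 4.84% at 22 h and 0.9% for 22 h minus 3 h. The counts of 1 at 22 h and for 22 h minus 3 h came from that setting. Between the 2 control sets the count of 4 became 2 with only those groups fitted and 2 to 4 on leaving out an array (2 without SM30 control B or C or AS30 control B). The shares of all probes called without SM30 control B, SM30 control C or AS30 control B were 18.3%, 19% and 27%.

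Among the other pathway genes the SM30 count of 15 became 25 over the mean of controls, 3 with slide fixed and 5 to 17 on leaving out a pair (9, 5 and 6 without SM30 pair A, B and C). The AS30 count of 7 at 3 h became 3 with all spots kept, 25 over the mean of controls, 0 with slide fixed, 13 with slide random and 1 to 11 on leaving out a pair. The count of 2 at 22 h became 4, 11, 0 and 4 with spots well above background, the mean of controls, slide fixed and slide random, and 0 to 4 on leaving out a pair. The share of all probes called moved as well. After SM30 without pair A it was 1.98%. After AS30 at 3 h it was 0.668% with all spots kept and 0.211% with slide fixed. At 22 h it was 4.74%, 31.1%, 0.108% and 6.83% with spots well above background, the mean of controls, slide fixed and slide random. The cause of these changes was not tested.

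The ratios take same-letter arrays as paired. With no replicate block, in a fit of 6 groups, the SM30 count was 4 and each AS30 count 0. Of all probes, 8.78% were then called after SM30, 4.59% after AS30 at 3 h and 4.99% at 22 h. Between the 2 control sets, fitted alone, the count was 2 without and 0 with the replicate block, where 11.2% and 0% of all probes were called. Between AS30 controls of 22 h and 3 h the count was 0 with the block. Signals near background, as for ID4, limit what can be measured.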
